A study of Mus musculus with 36 samples.

Results

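The 10 genes described here are the period and cryptochrome genes of the circadian clock and a set of its direct output genes: Per1, Per2, Per3, Cry1, Cry2, Ciart, Dbp, Tef, Hlf and Bhlhe41. They were chosen by gene symbol, all 10 were present among the 56748 genes of the expression table, and all 10 passed the filter on low values in every comparison. RNA-seq had been done on 36 libraries from 18 male mice, with 1 library of visceral white adipose tissue (visWAT, the epididymal fat pad) and 1 of liver from each mouse. Both Mlkl alleles of every mouse were flanked by loxP sites. MlklAdi-KO mice also carried a Cre recombinase driven by the adiponectin promoter, which is active in mature adipocytes, whereas the WT littermates lacked it. Mice were put on their diet at 16 weeks of age and fed a normal chow diet (NCD, 4 mice per genotype) or a high-fat diet (HFD, 5 mice per genotype) for 16 weeks. The strain was C57BL/6J, kept in 12-h light and 12-h dark. The hour of tissue collection is not given in the sources used here, and each tissue was sampled once per mouse, so a change in the level of a cycling gene and a change in its timing cannot be told apart. By mouse number, the HFD mice ran from 151 to 164 and the NCD mice from 165 to 199, without mixing. Whether both diets were collected at the same hour and day is not stated. Diet and collection time thus cannot be told apart in any diet difference below.

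In the mammalian clock, the transcription factors BMAL1 (gene Arntl) and CLOCK bind E-box motifs and switch on the Per and Cry genes, whose proteins return to the nucleus and repress BMAL1 and CLOCK. Ciart and Bhlhe41 encode further repressors of the same loop. Dbp, Tef and Hlf encode related PAR bZIP factors that bind D-box motifs and pass the rhythm on to metabolic genes, and they are known in liver as regulators of detoxification enzymes. The transcripts reach their peaks in a known order, with Dbp, Tef, Hlf, Ciart and Per3 late in the light phase, Per1, Per2, Cry2 and Bhlhe41 around dusk, and Cry1 late at night together with Arntl, Clock, Npas2 and Nfil3. Feeding time sets this rhythm in liver more strongly than light does.

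The genes are spread over the genome, with only Per1 and Hlf on the same chromosome (mm39 coordinates). Per1 lies at chr11:68986043-69000786 and Hlf at chr11:90227362-90281721, on opposite strands. Per2 lies at chr1:91343704-91387046, Per3 at chr4:151088109-151129122, Cry1 at chr10:84967564-85020928 and Cry2 at chr2:92233991-92264388. Ciart lies at chr3:95785815-95789563, Dbp at chr7:45354512-45359627, Tef at chr15:81686622-81711064 and Bhlhe41 at chr6:145803969-145811284. All are annotated as protein-coding.

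Promoter sequences were taken from RefSeq on build GRCm38.p6, which is not the build of the expression table, and 9 of the 10 genes had an entry. Per2 had none. The 250 bases before each start site were searched on both strands for the E-box CACGTG, the E-prime box CACGTT or AACGTG, the D-box TTATGTAA, TTACATAA or TTACGTAA, and the cAMP response element TGACGTCA. An E-box was present for 5 of the 9 genes (Ciart, Cry1, Per1, Tef and Bhlhe41), against 6.02% of all 32851 promoter windows in the table. Members were counted by gene, with a match in any window, whereas the background is by window (32851 windows of 27025 genes). Per1 and Tef had more than 1 window, and another window of Per1 held no match. The E-prime box was found for Cry1 and Cry2 (3.85% of all windows), the D-box for Per3 (0.931%) and the cAMP response element for Hlf (1.55%), and Dbp held no match in this window. The stretches below are printed 5′ to 3′ on the gene's own strand, with matches in capitals. They show the window with the most E-boxes (Ciart), the D-box pair (Per3) and the window with both E-box types (Cry1). The last is the window with a match of Per1, a gene that did not follow the others in liver.
Ciart, minus strand, chr3:95882255-95882356: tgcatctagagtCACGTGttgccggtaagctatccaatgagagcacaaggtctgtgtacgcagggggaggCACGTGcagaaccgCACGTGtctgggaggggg
Per3, minus strand, chr4:151044804-151044882: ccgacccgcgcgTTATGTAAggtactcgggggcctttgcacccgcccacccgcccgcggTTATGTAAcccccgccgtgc
Cry1, minus strand, chr10:85185097-85185145: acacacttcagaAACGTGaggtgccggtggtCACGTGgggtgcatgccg
Per1, plus strand, chr11:69098771-69098800: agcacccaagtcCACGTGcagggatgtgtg
The E-boxes of Ciart began 116, 58 and 44 bases upstream of the start site, and the D-boxes of Per3 205 and 158 bases upstream. A match is a description of the letters only.

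Expression is given in FPKM, which scales fragments to gene length and library size. Reads assigned to genes ranged from 20875463 to 30322171 per library. Mlkl, the targeted gene, was at 1.96 to 2.72 FPKM in the 9 MlklAdi-KO visWAT libraries and at 3.91 to 6.28 FPKM in 8 of the 9 WT ones. The remaining library, labelled WT NCD mouse 182, had 2.29 FPKM. The visWAT library of WT NCD mouse 183 gave 18.5% of its reads to seminal vesicle genes. The liver library of WT NCD mouse 182 also stood apart, with a chi-square per gene of 107.5 to 123 against the other 3 of its group, which were at 12.1 to 20.7 among themselves. Results in WT NCD visWAT are therefore also given without both mice where that changes a call. All 7 adipocyte markers were detected in each visWAT group and all 7 hepatocyte markers in each liver group. The hepatocyte sum was 40399 to 66130 FPKM in liver and reached 750.8 FPKM in 1 visWAT library (MlklAdi-KO HFD mouse 156).

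HFD was accompanied by higher levels of 8 of the 10 genes in liver, in both genotypes. Per2, Per3, Cry1, Cry2, Ciart, Dbp, Tef and Hlf rose in WT and in MlklAdi-KO mice, and none fell. Per1 and Bhlhe41 did not pass the test in either genotype. WT NCD mouse 182 had the lowest liver value of its group for 8 of the 10 genes, and without it the same number, 8, was called in WT liver, with log2 differences such as 1.79 for Per2, 0.80 for Dbp (adjusted p = 0.0413, limma) and 0.67 for Hlf. Of all genes tested, 25.3% differed between diets in WT liver and 22.2% in MlklAdi-KO liver (limma on log2(FPKM + 1), Benjamini-Hochberg adjusted p under 0.05). The median log2 difference of the 10 genes was 1.04 in WT and 1.11 in MlklAdi-KO liver, against a median of -0.0010 and 0.0026 over all genes tested. On HFD the groups of 7 genes in WT liver and of 8 genes in MlklAdi-KO liver did not overlap those on NCD, against 24.8% and 21.5% of all genes tested.

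The period genes differed among themselves in liver. Per2, a core repressor, was at 2.18, 3.68, 3.70 and 6.32 FPKM in the 4 WT NCD mice and at 17.1, 17.3, 17.8, 18.2 and 18.8 FPKM in the 5 WT HFD mice. In MlklAdi-KO liver it went from 2.84, 3.62, 3.76 and 3.87 FPKM on NCD to 13.6, 15, 15.2, 15.7 and 22.9 FPKM on HFD. All 10 HFD livers were thus above all 8 NCD livers, by a log2 difference of 1.98 ± 0.19 (SE, adjusted p = 0.000173, limma) in WT and 1.94 ± 0.14 (adjusted p = 4.02e-05, limma) in MlklAdi-KO mice. Per3, the period gene that is dispensable for the core loop, had the largest ratio of the 10. Its WT livers held 0.956, 1.05, 1.49 and 2.71 FPKM on NCD and 7.01, 7.13, 7.43, 7.98 and 8.74 FPKM on HFD. In MlklAdi-KO livers the values were 1.43, 1.47, 1.51 and 1.72 FPKM on NCD and 8.08, 8.69, 8.88, 8.98 and 11.7 FPKM on HFD. The ratio of the group means was 4.94 in WT and 6.04 in MlklAdi-KO mice. Per1, the period gene that also answers acutely to hormones and cAMP, stood apart. It was at 12.3 ± 2.82 FPKM (SD, n = 4) on NCD and 14.1 ± 1.74 FPKM (n = 5) on HFD in WT liver, a log2 difference of 0.20 with a 95% interval from -0.14 to 0.55 (adjusted p = 0.377, limma). MlklAdi-KO livers spread from 8.16 to 20.1 FPKM on NCD and from 6.13 to 18.4 FPKM on HFD, and the groups overlapped.

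**Figure D1:**
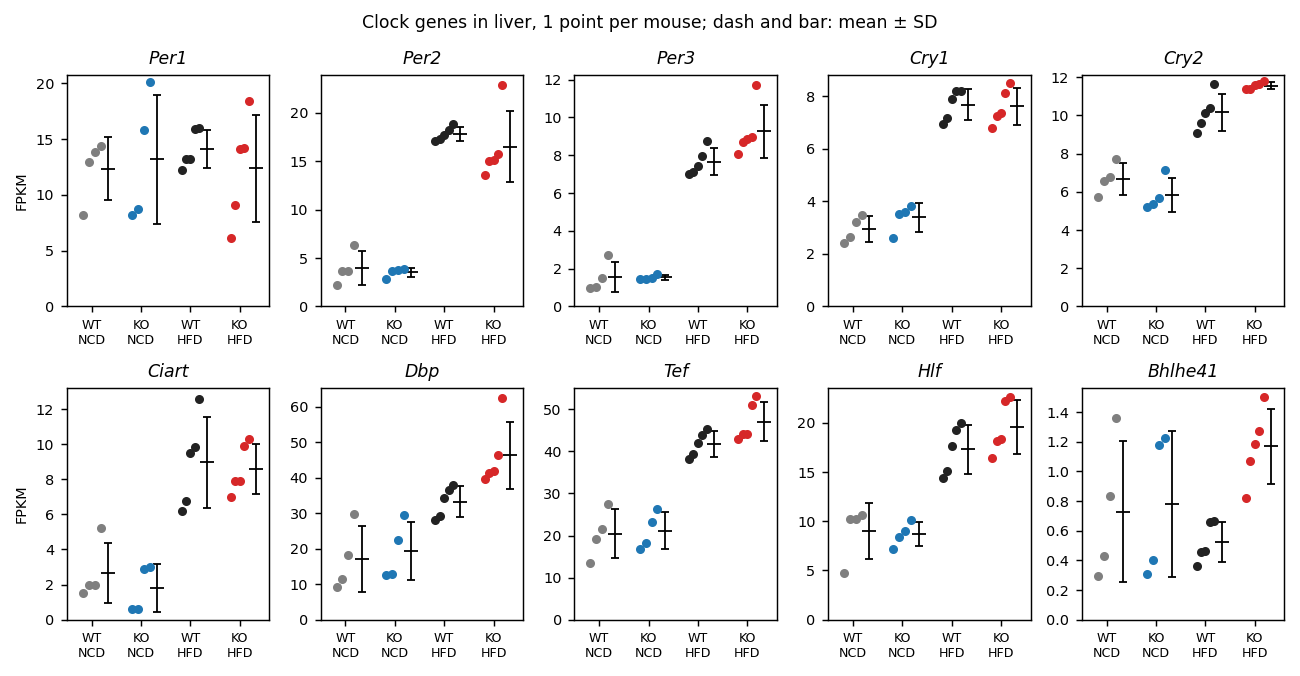
FPKM (y axes, from 0) of the 10 genes in liver by genotype and diet (x axes). Each point is 1 mouse, and the dash with its bar is the mean ± SD of 4 (NCD) or 5 (HFD) mice. Per2, Per3, Cry1, Cry2, Ciart, Tef and Hlf on HFD lie above every NCD liver of the same genotype, while Per1 and Bhlhe41 overlap between diets.

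The cryptochromes rose as well, Cry1 more than Cry2. Cry1, the stronger repressor of the pair and a gene of the late night, was at 2.40, 2.65, 3.22 and 3.47 FPKM in WT NCD livers and at 6.92, 7.16, 7.88, 8.20 and 8.21 FPKM in WT HFD livers. MlklAdi-KO livers held 3.38 ± 0.541 FPKM (SD, n = 4) on NCD and 7.61 ± 0.701 FPKM (n = 5) on HFD. The log2 difference was 1.15 ± 0.09 (SE, adjusted p = 6.32e-05, limma) in WT and 0.98 ± 0.10 (adjusted p = 0.000215, limma) in MlklAdi-KO liver. For Cry2 it was 0.54 ± 0.09 in WT and 0.88 ± 0.08 in MlklAdi-KO liver, with adjusted p of 0.00229 and 0.000139 (limma). Cry2 lay within 11.4 to 11.8 FPKM in the 5 MlklAdi-KO HFD livers, with a ratio of highest to lowest of 1.04, below that of any other of the 10 genes in any group.

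Ciart, a repressor that acts on BMAL1 and CLOCK, varied widely among NCD livers. In WT NCD livers it was at 1.5, 1.96, 1.98 and 5.24 FPKM, on 56 to 210 reads. In MlklAdi-KO NCD livers it was at 0.610, 0.634, 2.92 and 3.03 FPKM, on 24 to 120 reads. HFD livers ranged from 6.18 to 12.6 FPKM in WT and from 7.0 to 10.3 FPKM in MlklAdi-KO mice, above all NCD livers of either genotype. The log2 difference was 1.5 ± 0.28 (SE, adjusted p = 0.00462, limma) in WT and 1.91 ± 0.30 (adjusted p = 0.00195, limma) in MlklAdi-KO liver.

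Among the PAR bZIP factors, Dbp showed the same direction with more overlap. It was at 9.12, 11.5, 18.3 and 29.8 FPKM in WT NCD livers and at 28.1, 29.3, 34.3, 36.7 and 38.0 FPKM in WT HFD livers. One WT NCD mouse, 183, was thus above 2 of the HFD mice. MlklAdi-KO livers held 12.6, 12.8, 22.6 and 29.4 FPKM on NCD and 39.6, 41.4, 42.0, 46.3 and 62.6 FPKM on HFD, with no overlap. The log2 difference was 1.04 ± 0.29 (SE, adjusted p = 0.0257, limma) in WT and 1.28 ± 0.25 (adjusted p = 0.00557, limma) in MlklAdi-KO liver. In WT the call was lost without any one of 4 mice (adjusted p up to 0.0698 without NCD mouse 180, limma). Tef rose from 20.4 ± 5.79 FPKM (SD, n = 4) to 41.8 ± 3.01 FPKM (n = 5) in WT and from 21.1 ± 4.4 to 47.1 ± 4.67 FPKM in MlklAdi-KO liver. Hlf rose from 8.97 ± 2.84 to 17.3 ± 2.49 FPKM in WT and from 8.67 ± 1.2 to 19.5 ± 2.74 FPKM in MlklAdi-KO liver. Both were called in both genotypes, and their HFD and NCD groups did not overlap.

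Bhlhe41 (DEC2), a repressor that competes for E-boxes, was the lowest of the 10 genes in liver. Its WT livers held 0.294, 0.429, 0.836 and 1.36 FPKM on NCD and 0.365, 0.457, 0.466, 0.659 and 0.667 FPKM on HFD. MlklAdi-KO livers were at 0.308, 0.402, 1.18 and 1.23 FPKM on NCD and at 0.819, 1.07, 1.19, 1.27 and 1.5 FPKM on HFD. Diet groups overlapped in both genotypes (adjusted p = 0.567 in WT and 0.234 in MlklAdi-KO liver, limma).

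Several other clock genes moved in the opposite direction in the same livers. Of 13 tested, 7 fell and 1 rose in WT and 3 fell and 2 rose in MlklAdi-KO liver. Of all genes tested there, 25.3% and 22.2% were called by diet in either direction. Values are given for some of these clock genes. Nr1d1, the REV-ERBα repressor of Arntl, went from 64.8 ± 12 FPKM (SD, n = 4) on NCD to 10.9 ± 1.27 FPKM (n = 5) on HFD in WT, a log2 difference of -2.45 (adjusted p = 7.94e-06, limma). Arntl, the partner of Clock, fell by 0.79 on the log2 scale in WT and by 0.68 in MlklAdi-KO liver, and Clock fell by 0.46 and 0.55. Rora, an activator of Arntl, fell by 0.43 and the kinase gene Csnk1d by 0.24 in WT liver. Bhlhe40 (DEC1), the paralog of Bhlhe41, rose by a log2 difference of 1.05 in MlklAdi-KO liver. Nfil3, the repressor that opposes Dbp at D-boxes, fell by 0.42 in WT and was at -0.35 in MlklAdi-KO liver (adjusted p = 0.244, limma). Of 12 clock-controlled genes outside the loop, 8 rose and 1 fell in WT, and 7 rose and 1 fell in MlklAdi-KO liver. The cell-cycle kinase Wee1 went from 2.18 ± 0.714 FPKM (SD, n = 4) to 12.2 ± 1.62 FPKM (n = 5) and the deubiquitinase Usp2 from 3.99 ± 1.85 to 15.6 ± 1.85 FPKM in WT liver. Alas1, which starts haem synthesis, rose by a log2 difference of 2.24 and Por, the electron donor of cytochrome P450 enzymes, by 1.25. Cyp7a1, the rate-limiting enzyme of bile acid synthesis, rose by 1.49 in WT and 1.91 in MlklAdi-KO liver. The vasopressin receptor gene Avpr1a fell by 1.2 on the log2 scale in WT, and Elovl3, a fatty acid elongase, fell by 3.51 in MlklAdi-KO liver.

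Glucocorticoid-responsive genes also differed between diets in liver. Of 7 tested, 2 rose and 2 fell in WT (adjusted p under 0.05, limma), with Fkbp5 at a log2 difference of 1.04 and Zbtb16 at -2.91, and the summed level of the list ran from 170.9 to 224.6 FPKM on NCD and from 167.1 to 364.1 FPKM on HFD. In MlklAdi-KO liver 2 rose and 2 fell, with sums of 125.7 to 194.5 and 136.3 to 221.3 FPKM. Of 8 immediate early genes, 5 fell in WT and 1 in MlklAdi-KO liver, where 25.3% and 22.2% of all genes tested were called by diet. Of the 7 adipocyte markers 4 were tested in liver, and 3 rose in WT (Cfd, Cidec and Lipe) and 2 in MlklAdi-KO mice (Cfd and Lipe). Their sum over all 7 was 46.6 to 69.7 FPKM on NCD and 135.6 to 209.8 FPKM on HFD in WT mice, and 43.2 to 74.6 and 58.3 to 170.0 FPKM, with overlap, in MlklAdi-KO mice. In addition, 2 of 7 hepatocyte markers fell in WT and 3 of 7 in MlklAdi-KO liver. The part of all these in the clock gene result was not tested.

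In visWAT of the same mice fewer of the 10 genes were called by diet. Of the 10, only Bhlhe41 rose in WT visWAT and none fell (limma), where 37.8% of all genes tested differed between diets (3108 higher and 2239 lower on HFD, or 3805 and 227 on a TPM scale). The seminal vesicle reads of WT NCD mouse 183 enter the total by which its TPM values are scaled. In MlklAdi-KO visWAT, where 43.7% of all genes differed, Bhlhe41 and Cry1 rose and Per1 and Hlf fell. Cry1 thus rose in both tissues of MlklAdi-KO mice, whereas Hlf rose in liver and fell in visWAT. The median log2 difference of the 10 genes was 0.10 in WT and -0.05 in MlklAdi-KO visWAT, against -0.0061 and 0.0094 over all genes. The shares of members called, 1 and 4 of 10, are not above these backgrounds.

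**Figure D2:**
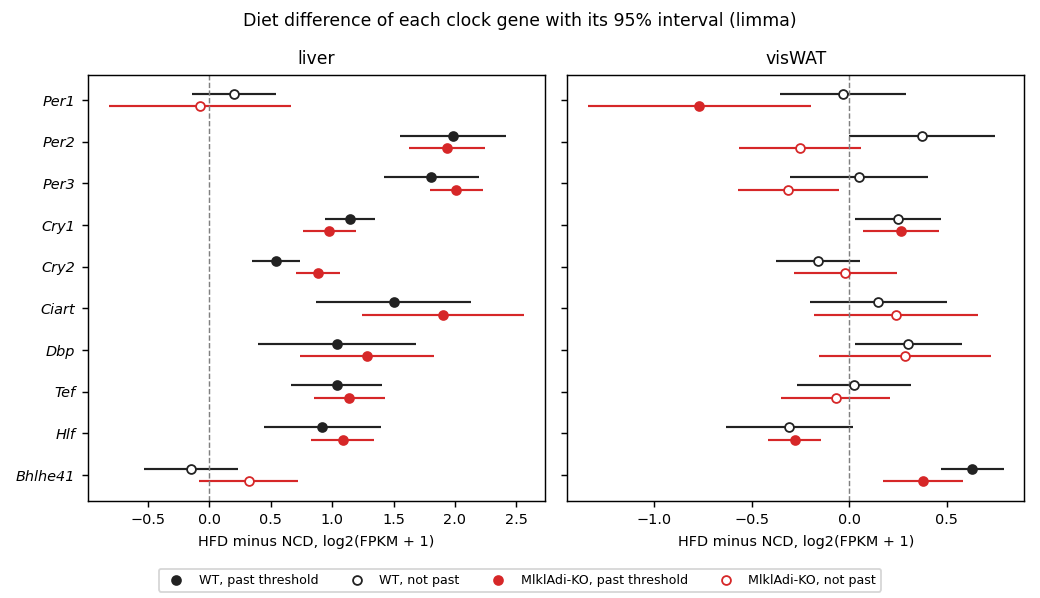
Difference between HFD and NCD in log2(FPKM + 1) (x axes, with a different range in each panel) for each gene (y axis) in liver and visWAT, with 95% intervals from limma. Filled points passed an adjusted p of 0.05. In liver 8 genes are filled on the right of 0 in both genotypes, and in visWAT most intervals include 0.

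Bhlhe41 was the one gene that limma called in visWAT of both genotypes. WT visWAT held 1.5, 1.66, 1.72 and 1.96 FPKM on NCD and 2.99, 3.05, 3.07, 3.16 and 3.68 FPKM on HFD. MlklAdi-KO visWAT held 1.99, 2.26, 2.60 and 2.62 FPKM on NCD and 2.93, 2.98, 3.42, 3.53 and 4.04 FPKM on HFD. Neither pair of groups overlapped, where 37.8% of all genes tested in WT and 43.7% in MlklAdi-KO visWAT were called by diet. The share of all genes without overlap is not reported here for diet in visWAT. The log2 difference was 0.63 ± 0.07 (SE, adjusted p = 0.000126, limma) in WT and 0.38 ± 0.09 (adjusted p = 0.00922, limma) in MlklAdi-KO visWAT.

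Per1 was lower on HFD in MlklAdi-KO visWAT. It was at 13.6, 16.9, 21.2 and 24 FPKM on NCD and at 6.02, 9.28, 10.1, 14.2 and 15.3 FPKM on HFD, with the lowest NCD mouse below 2 of the HFD mice. The log2 difference was -0.77 ± 0.25 (SE, adjusted p = 0.035, limma). This call was lost without any one of 6 mice (adjusted p up to 0.0951 without NCD mouse 199, limma). WT visWAT held 17.8 ± 3.43 FPKM (SD, n = 4) on NCD and 17.3 ± 2.4 FPKM (n = 5) on HFD, a log2 difference of -0.03 with a 95% interval from -0.35 to 0.29, whose sign was positive on a TPM scale. Per2 and Per3 did not pass the test in either genotype. For Per2 the log2 difference was 0.37 in WT (adjusted p = 0.108, limma) and -0.25 in MlklAdi-KO visWAT (adjusted p = 0.168, limma). Per3 was at 5.59 to 6.54 FPKM on NCD and 3.62 to 5.59 FPKM on HFD in MlklAdi-KO visWAT, a log2 difference of -0.31 that just missed the threshold (adjusted p = 0.0515, limma). The groups met at 5.59 FPKM, and Per3 was called on a TPM scale (adjusted p = 0.0231, limma) and on the recovered reads (adjusted p = 0.0434 with edgeR and 0.0261 with DESeq2).

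Cry1 was at 1.98 to 2.32 FPKM in MlklAdi-KO NCD visWAT and at 2.31 to 3.34 FPKM on HFD, a log2 difference of 0.26 ± 0.09 (SE, adjusted p = 0.0323, limma), and this call was lost without any one of 6 mice (adjusted p up to 0.0827 without NCD mouse 199, limma). In WT visWAT the log2 difference was 0.25 ± 0.10 (adjusted p = 0.0707, limma). Without mice 182 and 183 it was 0.41 (adjusted p = 0.00492, limma), and Ciart was then also called, at 0.38 (adjusted p = 0.044, limma). Hlf fell in MlklAdi-KO visWAT from 1.75, 1.76, 1.95 and 2.0 FPKM to 1.22, 1.23, 1.42, 1.46 and 1.46 FPKM (log2 difference -0.28 ± 0.06, SE, adjusted p = 0.00531, limma). In WT visWAT Hlf was at 1.79 ± 0.662 FPKM (SD, n = 4) and 1.22 ± 0.246 FPKM (n = 5), a log2 difference of -0.31 (adjusted p = 0.124, limma). On the recovered reads Hlf was called there with DESeq2 (-0.59, adjusted p = 0.0445) and not with edgeR (adjusted p = 0.0677). Without mice 182 and 183 its log2 difference was -0.12 (adjusted p = 0.366, limma). DESeq2 also called Hlf in MlklAdi-KO visWAT (adjusted p = 3.34e-05). Ciart, Dbp, Tef and Cry2 had 95% intervals that included 0 in MlklAdi-KO visWAT, and so did all of these except Dbp in WT visWAT, where Dbp was at 0.30 (0.03 to 0.57, adjusted p = 0.0799, limma).

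Marker genes of other cell types differed with diet in visWAT. All 7 macrophage markers rose in WT and 5 of 7 in MlklAdi-KO visWAT. Their summed level was 42.1 to 53.2 FPKM in WT NCD, 52.6 to 81.9 FPKM in MlklAdi-KO NCD, 463.3 to 713.2 FPKM in WT HFD and 155.0 to 637.5 FPKM in MlklAdi-KO HFD mice. The sum of the 7 adipocyte markers was 7760 to 19148 FPKM in WT NCD, 14663 to 18294 FPKM in MlklAdi-KO NCD, 3697 to 4641 FPKM in WT HFD and 4109 to 9897 FPKM in MlklAdi-KO HFD mice. These sums were largely set by Cfd (adipsin), whose mean was 9491 FPKM on NCD and 388.9 FPKM on HFD in WT mice and 11603 and 1844 FPKM in MlklAdi-KO mice. Without Cfd, a choice made after seeing the data, the sums overlapped between diets, at 3395 to 5062 and 3493 to 4051 FPKM in WT and at 3998 to 5339 and 3801 to 6513 FPKM in MlklAdi-KO mice. Of the 7 markers, 1 rose in WT visWAT, the leptin gene Lep (log2 difference 2.18), and 4 fell, Cfd (-4.51), Lipe (-0.83), Plin1 (-0.77) and Adipoq (-0.60). In MlklAdi-KO visWAT Lep (1.64) and Cidec (0.48) rose and Cfd (-3.30) and Plin1 (-0.57) fell. No marker of either list was at 0 throughout a visWAT group. In whole tissue, fewer cells of a type and less RNA per cell cannot be told apart, and the part of these cell types in the visWAT values was not tested.

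**Figure D3:**
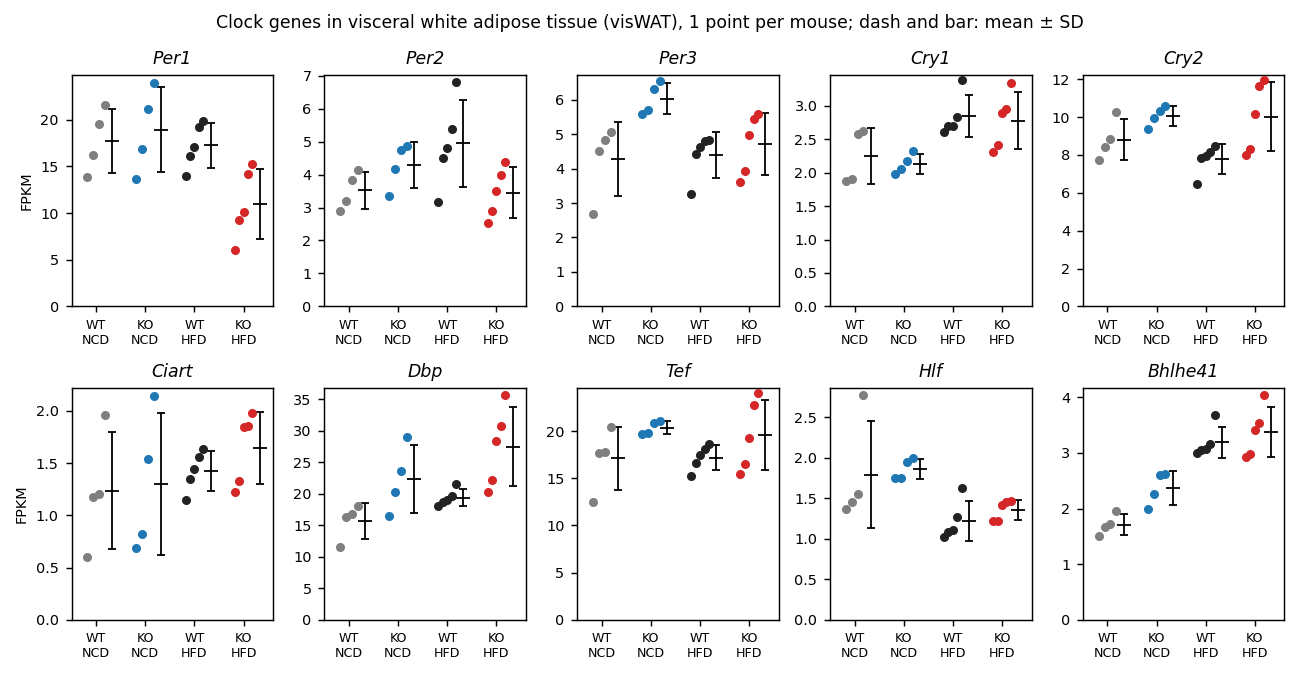
FPKM (y axes, from 0) of the 10 genes in visWAT by genotype and diet (x axes). Each point is 1 mouse, and the dash with its bar is the mean ± SD of 4 (NCD) or 5 (HFD) mice. Bhlhe41 lies higher on HFD in both genotypes, and the 5 MlklAdi-KO HFD mice include the lowest Per1 values.

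Some other clock genes fell in visWAT on HFD, though no larger a share than of all genes tested, of which 37.8% in WT and 43.7% in MlklAdi-KO visWAT were called by diet. Of 14 tested in WT, 3 fell and 0 rose (limma), among them Nr1d1 (log2 difference -1.07) and Arntl (-0.36). In MlklAdi-KO visWAT 4 of 13 fell and 0 rose (limma), among them Nr1d1 (-0.68) and Rora (-0.35). Among the clock-controlled genes, Wee1 rose by a log2 difference of 0.97 in WT visWAT and was at 0.21 in MlklAdi-KO visWAT (adjusted p = 0.138, limma). Of 10 tested on that list, 3 rose and 4 fell in WT, and 2 rose and 3 fell in MlklAdi-KO visWAT. Nampt, the salvage enzyme of NAD, and Por fell in visWAT of both genotypes, by 0.68 and 0.73 on the log2 scale in WT and by 0.65 and 0.61 in MlklAdi-KO mice, whereas both rose in liver. The glucocorticoid-responsive genes Zbtb16 (-2.35 and -1.52) and Fkbp5 (-0.93 and -0.56) fell in both genotypes, and Klf9 (-1.02) and Sgk1 (-0.80) fell in MlklAdi-KO visWAT. Of that list, 1 rose and 2 fell among 7 tested in WT, and 2 rose and 6 fell among 8 in MlklAdi-KO visWAT, whose sums were 219.7 to 254.5 FPKM on NCD and 219.9 to 318.5 FPKM on HFD. In WT visWAT the sums were 155.2 to 284.3 FPKM on NCD and 252.2 to 295.8 FPKM on HFD, and the part of these genes in the Per1 values was not tested.

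The diet difference itself was compared between the tissues, as the visWAT difference minus the liver difference. It was negative and called for 7 genes and positive and called for 1 (Bhlhe41) in WT mice, where 39.8% of all genes tested differed between the tissues (2452 positive and 2140 negative, or 3154 and 331 on a TPM scale). In MlklAdi-KO mice 8 genes were called, all negative, against 42.2% of all genes. Per3 had the largest value, -1.76 ± 0.24 (SE, adjusted p = 2.96e-05, limma) in WT and -2.32 ± 0.15 (adjusted p = 6.16e-08, limma) in MlklAdi-KO mice, followed by Per2 at -1.61 and -2.19. Ciart was at -1.36 and -1.67, Hlf at -1.23 and -1.37, Tef at -1.01 and -1.21, Cry1 at -0.90 and -0.71, and Cry2 at -0.70 and -0.90. Dbp was at -0.74 in WT (adjusted p = 0.0817, limma, or 0.0273 without mice 182 and 183) and at -0.998 in MlklAdi-KO mice (adjusted p = 0.0231, limma). Bhlhe41 was at 0.78 in WT (adjusted p = 0.00331, limma) and at 0.06 in MlklAdi-KO mice (adjusted p = 0.853, limma). Per1 was at -0.23 in WT (adjusted p = 0.42, limma). In MlklAdi-KO mice Per1 was at -0.69, with an adjusted p of 0.226 without and 0.00465 with the mouse as a block (limma), since both tissues came from the same animals.

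Genotype had no called effect on any of the 10 genes on HFD. In visWAT 0 of 10 passed (limma, 0.0215% of all genes tested), with 4 at an unadjusted p under 0.05 against 21.5% of all genes, and edgeR and DESeq2 on the recovered reads also called 0. In liver 0 of 10 passed with limma (0.197% of all genes, 17 higher and 9 lower in MlklAdi-KO mice, or 12 and 16 on a TPM scale), with 5 at an unadjusted p under 0.05 against 12.6% of all genes, 0 with edgeR and 2 with DESeq2 (1.98% of all genes). These comparisons share their MlklAdi-KO and WT HFD libraries with the diet comparisons. Dbp and Bhlhe41 in liver were the 2 genes that DESeq2 called, and the 2 whose groups did not overlap, against 2.62% of all genes tested.

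Dbp in HFD liver was at 28.1, 29.3, 34.3, 36.7 and 38.0 FPKM in WT and at 39.6, 41.4, 42.0, 46.3 and 62.6 FPKM in MlklAdi-KO mice. All 5 MlklAdi-KO livers were above all 5 WT livers, with a log2 difference of 0.46 ± 0.13 (SE, adjusted p = 0.218, limma; adjusted p = 0.0246, DESeq2). The exact two-sided permutation p was 0.00794, the smallest that 5 against 5 mice allow. In HFD visWAT Dbp was at 18, 18.7, 19.1, 19.6 and 21.5 FPKM in WT and at 20.2, 22.2, 28.3, 30.8 and 35.6 FPKM in MlklAdi-KO mice. The lowest MlklAdi-KO mouse, 152, was below the highest WT mouse, and the log2 difference was 0.46 ± 0.14 (adjusted p = 0.221, limma; exact permutation p = 0.0159). The estimates were thus close in both tissues, with a difference between tissues of -0.0016. Its 95% interval, from -0.42 to 0.41, was wide beside the estimates of 0.46, so equal sizes are not shown.

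Bhlhe41 in HFD liver ranged from 0.365 to 0.667 FPKM in WT, on 48 to 83 reads, and from 0.819 to 1.5 FPKM in MlklAdi-KO mice, on 90 to 165 reads. The groups did not overlap, and the difference in log2(FPKM + 1) was 0.51 ± 0.10 (SE, adjusted p = 0.0868, limma), with an exact permutation p of 0.00794. On the recovered reads the log2 difference was 1.16 with both DESeq2 (adjusted p = 5.17e-05) and edgeR (adjusted p = 0.0576). The ratio of the mean FPKM was 2.24. In HFD visWAT the 2 groups overlapped, at 2.99 to 3.68 FPKM in WT and 2.93 to 4.04 FPKM in MlklAdi-KO mice. The difference between tissues was -0.45 ± 0.12 (adjusted p = 0.115, limma), and 0 of 10 genes passed that comparison (0.115% of all genes tested, 7 positive and 6 negative, or 8 and 4 on a TPM scale), with 1 at an unadjusted p under 0.05 (19.1% of all genes) and 0 called with the mouse as a block.

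Per1 in HFD visWAT was at 14.0, 16.1, 17.1, 19.2 and 19.9 FPKM in WT and at 6.02, 9.28, 10.1, 14.2 and 15.3 FPKM in MlklAdi-KO mice. Of the 5 MlklAdi-KO mice, 3 were below every WT mouse, and the log2 difference was -0.66 ± 0.21 (SE, adjusted p = 0.221, limma; exact permutation p = 0.0238). Per2 was at -0.40 and Cry2 at 0.32 in the same comparison, with adjusted p of 0.223 and 0.221 (limma). In HFD liver the Per1 difference was -0.25 with a 95% interval from -0.77 to 0.27. None of the other clock genes, clock-controlled genes or glucocorticoid-responsive genes on the lists was called by genotype in either tissue on HFD (limma). In visWAT limma called only 3 of all genes tested and DESeq2 161, and the lists were not counted with DESeq2. The paper names Sgk1, a gene of the glucocorticoid list, as strongly downregulated in this visWAT comparison, and measured Sgk1 and Wee1 by RT-qPCR. In the genotype comparison between tissues, 1 of 10 clock-controlled genes was called, with a negative sign (limma). Of the 7 macrophage and 7 adipocyte markers, 0 were called by genotype in HFD visWAT. Their sums, given above, reached lower macrophage and higher adipocyte values in MlklAdi-KO mice, and their part in these values was not tested.

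On NCD no gene of the 10 was called by genotype. In visWAT 0 of 10 passed (limma, 0% of all genes tested), with 3 at an unadjusted p under 0.05 (3.75% of all genes), 0 with edgeR and 0 with DESeq2. Per3 was at 2.69, 4.51, 4.82 and 5.07 FPKM in WT and at 5.59, 5.71, 6.30 and 6.54 FPKM in MlklAdi-KO visWAT, and Bhlhe41 at 1.5 to 1.96 and 1.99 to 2.62 FPKM. Neither overlapped, as for 2.46% of all genes tested, with log2 differences of 0.44 ± 0.15 and 0.31 ± 0.09 (SE, adjusted p = 0.916 for both, limma) and an exact permutation p of 0.0286, the smallest that 4 against 4 mice allow. In NCD liver 0 of 10 passed (limma, 0.00758% of all genes), with 0 at an unadjusted p under 0.05 (4.35% of all genes), 0 with edgeR and 0 with DESeq2. All 10 genes overlapped between genotypes, where 2.8% of all genes did not.

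The interaction of diet and genotype, the MlklAdi-KO diet difference minus the WT one, was not called for any of the 10 genes. In visWAT 0 of 10 passed (limma, 0% of all genes tested), with 3 at an unadjusted p under 0.05 (13.2% of all genes), 0 with edgeR and 0 with DESeq2. These 3 were Per2 (-0.63, 95% interval -1.11 to -0.15), Per1 (-0.74, -1.39 to -0.09) and Bhlhe41 (-0.25, -0.50 to -0.01), with adjusted p of 0.337, 0.356 and 0.371 (limma). In liver 0 of 10 passed (limma, 0.0151% of all genes), with 1 at an unadjusted p under 0.05 (6.12% of all genes), 0 with edgeR and 0 with DESeq2. That gene was Cry2, at 0.34 (0.09 to 0.60, adjusted p = 0.558, limma).

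For each mouse, the ends of the usual order of peaks were compared by the mean log2(FPKM + 1) of Ciart, Dbp, Tef, Hlf and Per3 minus that of Cry1, Arntl, Clock, Npas2 and Nfil3. Level and timing cannot be told apart in this difference. In liver this difference was 0.24, 0.58, 0.91 and 1.55 in WT NCD mice and 0.36, 0.58, 1.29 and 1.35 in MlklAdi-KO NCD mice. On HFD it ran from 2.10 to 2.47 in WT and from 2.29 to 2.84 in MlklAdi-KO mice, so no HFD liver overlapped an NCD liver. All 5 late-light genes were called higher on HFD in liver of both genotypes, so this separation restates the same values. Npas2, with group means of 0.03 to 0.52 FPKM in liver, did not pass the filter of the diet comparisons there. Spread within a group was larger on NCD, with an SD of 0.56 in WT and 0.50 in MlklAdi-KO mice, than on HFD, with 0.15 and 0.24. In WT NCD liver the lowest value, 0.24, was that of mouse 182, whose liver library stood apart, and the highest, 1.55, that of mouse 183. The difference in spread was not tested. Cry1 was the exception in its set. It rose with the late-light genes, whereas Arntl and Clock fell. In visWAT the difference was 1.09 ± 0.27 (SD, n = 4) in WT NCD, 1.52 ± 0.27 (n = 4) in MlklAdi-KO NCD, 1.24 ± 0.15 (n = 5) in WT HFD and 1.54 ± 0.27 (n = 5) in MlklAdi-KO HFD mice, and the diets overlapped in both genotypes.

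**Figure D4:**
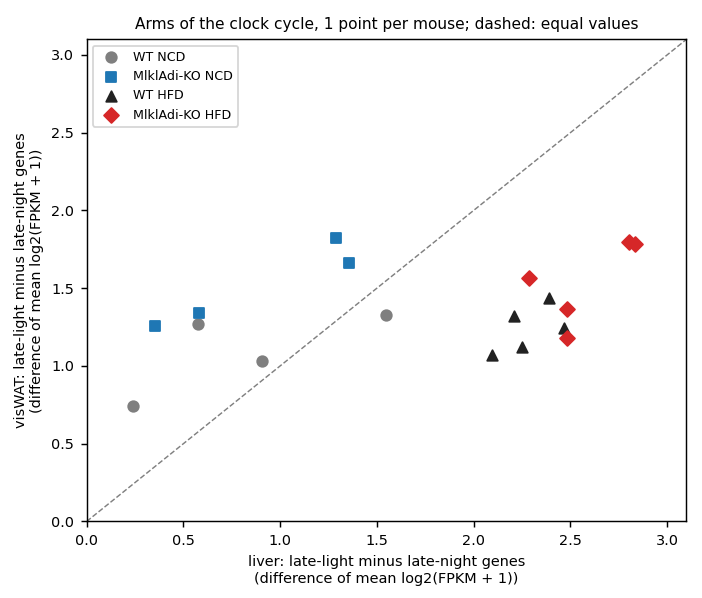
Mean log2(FPKM + 1) of the late-light genes minus that of the late-night genes in liver (x axis) and visWAT (y axis). Each point is 1 mouse, marked by genotype and diet, and the dashed line marks equal values. The 10 HFD mice lie between 2.10 and 2.84 in liver, to the right of all 8 NCD mice, while visWAT values of the diets overlap.

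Both tissues of a mouse were compared gene by gene after centring on the 4 groups of diet and genotype. For rho, values were ranked within each group, and the ranks were centred and pooled over the groups. For Per1, Pearson's r between visWAT and liver was 0.83 over 18 mice (permutation p = 0.0014 within groups) and this within-group rho was 0.77 (p = 0.0024, permutation). Adjusted over 11489 genes these p-values became 0.41 and 0.76. For r, 0 genes in the whole table passed (0% of all genes), with 820 at an unadjusted p under 0.05 (7.14%). Without the 2 mice farthest from the median in visWAT, 151 and 157, r for Per1 was 0.70. Within HFD mice r was 0.91 and within NCD mice 0.73. Both MlklAdi-KO groups, of 4 and of 5 mice, had the same order of mice by Per1 in liver and visWAT, at 6.13 FPKM in liver and 6.02 FPKM in visWAT for mouse 151 and at 18.4 and 15.3 FPKM for mouse 157 on HFD. Among all 40 combinations of gene and group, the only other one with the same order was Cry1 in MlklAdi-KO NCD mice. The shared order of Per1 restates the values behind its r and was not tested.

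For the other 9 genes the relation was weaker. Ciart had r = 0.75 (permutation p = 0.0265, adjusted p = 0.657), with r = 0.93 in the 8 NCD and -0.026 in the 10 HFD mice, a rho of 0.23 (permutation p = 0.439) and r = 0.65 without the 2 farthest mice. Tef had r = 0.60 (permutation p = 0.0254, adjusted p = 0.655) and a rho of 0.50 (permutation p = 0.0755), and its r was 0.31 without the 2 farthest mice. Over the 10 genes, 7 had r above 0, with a median of 0.24 against 0.04 over all genes. Both tissues share the animal and its hour of collection.

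**Figure D5:**
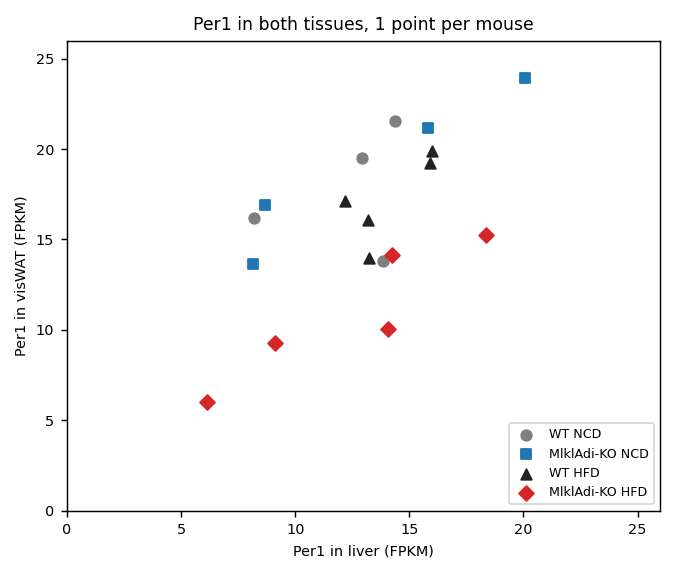
Per1 in liver (x axis, FPKM) and in visWAT (y axis, FPKM) for each of the 18 mice, marked by genotype and diet. Mice with more Per1 in liver tend to have more in visWAT, and the 5 MlklAdi-KO HFD mice run from 6.13 and 6.02 FPKM to 18.4 and 15.3 FPKM.

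Among themselves, the genes varied together within groups to unequal degrees. In liver, Dbp and Tef had a Pearson's r of 0.94 over 18 mice after centring on the groups, and Tef was the most like Dbp of 11356 genes, followed by Timm17b (0.92), Rnaseh1 (0.91), Nr1d2 (0.86) and Rn7sk (0.85). In visWAT the closest pair was Per3 and Tef (0.94), and the genes most like Dbp were 9130401M01Rik (0.83), P2ry2 (0.78), Arpc1a (0.77), Leng9 (0.77) and Lrrc14 (0.76). Cry1 was loosely tied to the rest, with r from -0.32 (Ciart) to 0.38 (Hlf) in liver and from -0.13 (Per2) to 0.44 (Hlf) in visWAT. The genes most like Per1 in liver were Gm10288 (0.88), Kctd2 (0.87), ENSMUSG00000120036 (0.85), Glrx2 (0.84) and A930033H14Rik (0.82). In visWAT they were Tob2 (0.83), Sik1 (0.82), Ttc8 (0.81), Skiv2l (0.80) and ENSMUSG00002076903 (0.80). Those most like Cry1 were Gm45470 (0.84), Cand1 (0.83), Ankib1 (0.83), mt-Co1 (0.83) and Iws1 (0.81) in liver and Nat8f1 (0.84), Gcdh (0.82), Dhodh (0.82), Rgl3 (0.80) and Tubb4b-ps1 (0.78) in visWAT. These values are descriptions over libraries that also share depth and tissue composition.

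By level, the order of the genes differed between the tissues in WT NCD mice. In liver it ran from Tef (20.4 FPKM), Dbp (17.2), Per1 (12.3), Hlf (8.97) and Cry2 (6.69) to Per2 (3.97), Cry1 (2.93), Ciart (2.67), Per3 (1.55) and Bhlhe41 (0.730). In visWAT Per1 (17.8 FPKM), Tef (17.1) and Dbp (15.7) led, with overlapping ranges, followed by Cry2 (8.81), Per3 (4.27), Per2 (3.52), Cry1 (2.25), Hlf (1.79), Bhlhe41 (1.71) and Ciart (1.24). All neighbours in the liver order overlapped between mice. In visWAT the neighbours that did not were Dbp and Cry2, Cry2 and Per3, and Per2 and Cry1. Hlf took the fourth place in liver and the eighth in visWAT.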

How the data were processed

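Total RNA from visWAT and liver had been sequenced as 1 library per tissue and mouse. Per the study's methods the authors trimmed reads with fastp, aligned them with HISAT2 and counted them with featureCounts (1.5.0-p3, build mm39 in the submitters' processing notes). The annotation release and the strand setting are not given in the sources used here. RNA was extracted from adipose tissue with a phenol reagent (TRIzol in the labels, QIAzol in the study's methods) and from liver with a column kit per those methods, so extraction and tissue cannot be told apart. The authors deposited FPKM values per gene and library, beside each gene's length, and read counts for the genes listed in their comparison tables. These deposited counts of at least 20 gave the library size behind each FPKM column, whose ratio to the reads on genes ran from 0.737 to 0.812 for liver libraries and from 1.01 to 1.4 for visWAT libraries, and which so includes a scaling between libraries that the sources used here do not describe. With it, whole reads were recovered for every gene (100% of values were whole within 0.01) and used for edgeR (4.0.16) and DESeq2 (1.42.0). In all, 72 per-sample columns were left unused, as were the authors' tables of fold changes, p-values and pathway results, which hold their own comparisons.

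Samples were grouped by the tissue, genotype and diet in the labels. The main test was limma (3.58.1, R 4.3.3) with a mean-variance trend on log2(FPKM + 1), for genes with a mean of at least 0.5 FPKM in the libraries compared, with Benjamini-Hochberg adjustment over all genes tested and a threshold of 0.05. A difference on this scale understates the change of low genes. Each group was 4 or 5 mice. Mouse numbers in the labels pair the 2 tissues of an animal, so differences between tissues were fitted without and with the mouse as a block. Covariation between tissues used 100000 permutations of mice within groups. Scripts were tested on simulated data. Libraries of the same group differed by more than sampling noise in all 64 pairs, with a chi-square of at least 9.82 per gene. The 10 genes were named in every comparison, other clock and clock-controlled genes as counts with values for some past the threshold, and the 5 most similar genes by centred Pearson's r were ranked for Dbp, Per1 and Cry1. Alternatives were a pseudocount of 0.1, no filter or a filter of 1 FPKM, a TPM scale, edgeR, DESeq2, all 4 groups in 1 fit, leaving out each mouse, and leaving out mice 182 and 183. The members and lists were chosen with earlier results of these data known. Values of some listed clock genes past the threshold are not reported here.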

Additional observations from a re-analysis of the deposited data

Results flagged for a closer look

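Of 80 sets of values (10 genes in 8 groups), 8 had a mouse far from the others of its group by Dixon's ratio, where chance flags about 1 in 20 groups. In WT NCD liver, Ciart was highest in mouse 183 (5.24 FPKM, others 1.5 to 1.98) and Hlf was lowest in mouse 182 (4.73 FPKM, others 10.2 to 10.7). In WT NCD visWAT, Hlf was highest in mouse 183 (2.78 FPKM, others 1.37 to 1.56), whose library held the seminal vesicle reads. In MlklAdi-KO HFD liver, Per2 was highest in mouse 157 (22.9 FPKM, others 13.6 to 15.7) and Per3 in mouse 156 (11.7 FPKM, others 8.08 to 8.98). In WT HFD visWAT, mouse 155 had the lowest Per3 (3.25 FPKM, others 4.43 to 4.83) and the highest Bhlhe41 (3.68 FPKM, others 2.99 to 3.16), and mouse 164 had the highest Cry1 (3.39 FPKM, others 2.61 to 2.84).

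The diet difference, in log2(FPKM + 1), differed between visWAT and liver with an adjusted p under 0.05 (limma) for 8 genes in each genotype. In WT mice the visWAT difference minus the liver difference was -1.61 for Per2, -1.76 for Per3, -0.90 for Cry1, -0.70 for Cry2, -1.36 for Ciart, -1.01 for Tef, -1.23 for Hlf and 0.78 for Bhlhe41. In MlklAdi-KO mice it was -2.19 for Per2, -2.32 for Per3, -0.71 for Cry1, -0.90 for Cry2, -1.67 for Ciart, -0.998 for Dbp, -1.21 for Tef and -1.37 for Hlf. That the calls for Dbp and Bhlhe41 differed between the genotypes was not itself tested in 1 model.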

How the results depend on the processing

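For diet in liver, 8 members were called in both genotypes under all alternatives that kept every mouse, except that Dbp in WT liver was lost without the filter (adjusted p = 0.0588, limma), and leaving out 1 mouse gave 7 to 8 members in WT and 8 in MlklAdi-KO liver. In WT visWAT the 1 member called became 4 on a TPM scale, 2 with DESeq2, 3 with all 4 groups in 1 fit and 3 without mice 182 and 183, and leaving out 1 mouse gave 1 to 2. The TPM scale put the median of all genes at 0.42 there and at 0.41 in the tissue comparison of WT mice, and relative to that median Cry1 was at 0.32, Ciart at 0.22, Dbp at 0.36 and Bhlhe41 at 0.80. TPM divides each FPKM by the FPKM sum of its library. That sum was 564718 in visWAT of WT NCD mouse 183, with 255949 in seminal vesicle genes, and 227793 to 309820 in the other visWAT libraries. TPM thus lowers all other genes of that library. For diet in MlklAdi-KO visWAT, without it, the TPM median was 0.0008. On that scale Per1 in WT visWAT went from -0.03 to 0.44 and Cry2 from -0.16 to 0.29. It put that median at 0.35 for genotype in NCD visWAT, at -0.10 for genotype in HFD visWAT and at -0.45 for the visWAT interaction, with 0 members called. In MlklAdi-KO visWAT 4 members became 2 without the filter, 3 with all 4 groups in 1 fit and 5, Per3 added, with edgeR, DESeq2, the TPM scale and the 1 FPKM filter, and leaving out 1 mouse gave 2 to 4. For genotype, the 0 members called in HFD liver became 2 with DESeq2. All other alternatives for genotype, for both interactions and for covariation gave 0 members, leave-one-out fits of genotype and interaction included. Covariation was not run without each mouse in turn. For the tissue comparison, the 8 members in WT mice became 5 on the TPM scale, and leaving out 1 mouse gave 8 to 9 in WT and 7 to 8 in MlklAdi-KO mice. With the mouse as a replicate block, 8 members were called in WT and 9 in MlklAdi-KO mice, Per1 being the one added, and 0 for genotype on HFD. No pairing applied within a tissue, since each mouse was in 1 group. Why these counts moved was not tested. Of 568 alternative values of called members, 543 kept their call, 25 lost it and none reversed, and of 1654 values of members not called, 23 passed and 122 had the opposite sign. Reads were few for Bhlhe41 in liver, with 36 to 165 per library. Ciart also had few, with 24 to 120 in MlklAdi-KO NCD liver and 48 to 165 in NCD visWAT. How far depth limited these values was not tested. The sources used here do not say that mice of a group came from separate cages or days, so p-values measure the spread between these mice.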
